A study of Mus musculus with 11 samples.

Results

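Cyclin-dependent kinase (CDK) inhibitor genes were followed as H3K27ac regions, meaning stretches of chromatin enriched for acetylation of histone H3 at lysine 27, a mark of active promoters and enhancers. The genes were Cdkn1a, Cdkn1b, Cdkn2a, Cdkn2b, Cdkn2c and Cdkn2d, and every region that the authors' deposited table assigns to one of these symbols was taken. That rule found 7 of 56342 regions, for 4 of the 6 genes: 3 regions for Cdkn1a, 2 for Cdkn1b, 1 for Cdkn2c and 1 for Cdkn2d. Cdkn2a and Cdkn2b had 0 regions. The cells were Beko, a mouse pre-T cell line, analysed by chromatin immunoprecipitation and sequencing (ChIP-seq). They were kept for 24 h with DMSO (the vehicle control), with 0.01 mg/ml apicidin, or with DAPT, a gamma-secretase inhibitor (GSI), at 10 mg/ml, as the labels give the doses. Apicidin inhibits histone deacetylases, and DAPT blocks the cleavage that activates Notch receptors. H3K27ac was measured in 2 libraries per condition, and the Notch effector RBPJ was mapped in 2 libraries of DMSO cells. The labels do not say whether the 2 libraries of a condition were grown separately. The p-values therefore carry only library-to-library spread, possibly technical.

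CDK inhibitors are brakes of the cell cycle. The Cip/Kip proteins p21 (Cdkn1a) and p27 (Cdkn1b) bind whole cyclin-CDK complexes and restrain entry into S phase, whereas the INK4 proteins p16 (Cdkn2a), p15 (Cdkn2b), p18 (Cdkn2c) and p19 (Cdkn2d) bind CDK4 and CDK6 and keep D cyclins from activating them. The Cdkn2a locus also encodes p19ARF, which stabilises p53, and p53 in turn activates Cdkn1a. In developing T cells p18 and p27 limit the expansion of progenitors, Notch signalling is known to favour p27 breakdown through Skp2, and loss of the Cdkn2a and Cdkn2b locus is common in T cell leukaemia. Histone deacetylase inhibitors are widely known to raise p21 expression. These statements are background and not results of the data below.

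The promoter sequences are shown because the strongest regions of Cdkn2c, Cdkn1b and Cdkn1a lie at or next to the start, and that of Cdkn2d for comparison. RefSeq sequences were matched by symbol for all 6 genes. Windows of 250 bases before a start are printed for the 4 genes with a region, 5′ to 3′ in the direction of the gene, with build GRCm38.p6. The regions themselves are on mm9, so windows and regions were joined by gene name only. Capitals mark the Sp GC box (GGGCGG) and the RBPJ core (TGGGAA), each on either strand, and the p53 half-site. The p53 half-site was added to the search after the sequences had been seen.
Cdkn2c, first start, chr4:109666757-109667006, minus strand: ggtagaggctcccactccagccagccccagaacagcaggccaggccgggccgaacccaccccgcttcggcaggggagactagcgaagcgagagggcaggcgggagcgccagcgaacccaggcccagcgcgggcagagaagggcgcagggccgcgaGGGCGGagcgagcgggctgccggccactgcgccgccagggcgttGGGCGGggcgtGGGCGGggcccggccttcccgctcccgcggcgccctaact
Cdkn1b, chr6:134920151-134920400, plus strand: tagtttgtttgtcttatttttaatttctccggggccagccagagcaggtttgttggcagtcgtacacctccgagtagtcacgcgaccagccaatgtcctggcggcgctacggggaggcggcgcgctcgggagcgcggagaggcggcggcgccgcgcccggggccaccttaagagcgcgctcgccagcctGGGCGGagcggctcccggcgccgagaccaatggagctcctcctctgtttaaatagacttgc
Cdkn1a, first start, chr17:29090729-29090978, plus strand: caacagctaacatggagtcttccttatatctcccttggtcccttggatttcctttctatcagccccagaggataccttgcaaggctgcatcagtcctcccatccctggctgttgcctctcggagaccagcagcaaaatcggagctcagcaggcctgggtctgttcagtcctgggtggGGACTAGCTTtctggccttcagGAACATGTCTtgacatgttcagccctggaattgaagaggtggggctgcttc
Cdkn1a, second start, chr17:29093519-29093768, plus strand: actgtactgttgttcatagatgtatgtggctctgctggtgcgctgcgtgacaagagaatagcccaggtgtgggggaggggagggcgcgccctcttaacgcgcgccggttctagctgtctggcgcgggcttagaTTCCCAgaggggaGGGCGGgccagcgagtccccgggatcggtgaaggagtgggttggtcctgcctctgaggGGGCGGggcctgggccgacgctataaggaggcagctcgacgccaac
Cdkn2d, chr9:21291210-21291459, minus strand: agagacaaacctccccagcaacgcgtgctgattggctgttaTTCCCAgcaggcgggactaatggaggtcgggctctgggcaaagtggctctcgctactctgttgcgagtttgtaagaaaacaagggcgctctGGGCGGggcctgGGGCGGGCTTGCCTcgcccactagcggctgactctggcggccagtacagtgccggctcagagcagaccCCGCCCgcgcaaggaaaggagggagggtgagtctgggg

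The Cdkn2c window was the richest of these in G and C, at 77.2%, above 97.4% of the 32851 RefSeq windows of the same length, whose median was 52.4%. It held 3 GC boxes, the Cdkn1b window 1, the second Cdkn1a window 2 and the Cdkn2d window 3. A GC box, which Sp1 and Sp3 bind, was present in 32.7% of all windows. The RBPJ core was found once in the second Cdkn1a window and once in the Cdkn2d window, and 21.6% of all windows held it. In the Cdkn2d window a GC box and the single p53 half-site overlap. The first Cdkn1a start lies 2790 bases before the second, and its window held 2 p53 half-sites and no GC box, with 7.13% of all windows holding a half-site. RefSeq lists a further Cdkn2c start 1384 bases beyond the first, whose window held no match and had 42.8% G and C. None of the 5 printed windows held the E2F letters TTGGCGC or TTCGCGC (3.14% of all windows), the E box CACGTG (6.02%) or TATAAA (12.4%) on either strand. A match describes letters in a window only. Which Cdkn1a start the deposited transcript NM_007669 uses is not stated in the tables used here.

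The genes differed in their level of acetylation. The base mean, the authors' mean of normalised read counts over libraries, stood at 8412 for the main Cdkn1b region and 5440 for the Cdkn2c region in the authors' deposited table. Both regions cover the transcription start site (TSS) and are broad. The Cdkn1b region (chromosome 6, 134865542 to 134884738, mm9) spans 19.2 kb, from -4.88 kb to 14.3 kb relative to the TSS, and the Cdkn2c region (chromosome 4, 109327059 to 109341192) spans 14.1 kb. The Cdkn1b region also holds the TSS of the noncoding transcript 1190002F15Rik, as placed by the distances of that symbol's own regions (13487, 14462 and 15166 bp). Its level, width and change therefore cannot be credited to Cdkn1b alone. Per kilobase, which allows genes to be compared, the level was 438 for Cdkn1b and 385 for Cdkn2c, above 94.4% and 89.2% of the 7889 regions that cover a TSS. The median of those regions was 237 per kilobase with a width of 1929 bp.

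Cdkn1a carried a narrower promoter region. It runs over 2.41 kb (chromosome 17, 29230730 to 29233143), begins 12 bp after the TSS that the table uses, and has a base mean of 844 in the authors' deposited table, or 350 per kilobase. A second Cdkn1a region (29233345 to 29234680) starts 2.63 kb after the TSS with a base mean of 139 in the authors' deposited table, and the third (29248614 to 29248826) starts 17.9 kb after it with 16.9. The lesser Cdkn1b region (134864770 to 134865143) ends 5.28 kb before the TSS with a base mean of 29.6 in the authors' deposited table. Cdkn2d had only a weak region 2.68 kb from its TSS (chromosome 9, 21098330 to 21098790), at 42.7 in the authors' deposited table. The table gives that distance without a sign, and with a lone region its side could not be settled. The 4 weaker regions had 79.3 to 104 reads per kilobase, below the median of all regions (107), and the 3 stronger ones 350 to 438.

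No region overlapped an RBPJ site: the mark was 0 for all 7, against 2.73% of all regions and 12.0% of those covering a TSS that carry it. The sources used here do not state how many libraries back that mark or what overlap it needed.

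Apicidin lowered H3K27ac at the strongest region of each of Cdkn2c, Cdkn1a and Cdkn1b, and raised it at none of the 7. A region was called where the adjusted p of the authors' DESeq2 test was under 0.05. By that rule 3 regions were lower, 0 higher and 4 not called, and 3 passed an unadjusted p under 0.05. Across all regions 23.8% were called with apicidin, 14.1% lower and 9.69% higher. Among regions that cover a TSS 47.4% were called, 39.4% lower and 8.01% higher. The members' median log2 fold change was -0.32, against 0.0040 for all regions and -0.24 for those covering a TSS. The authors normalised the counts, so a change shared by all regions may have been removed, and higher and lower are relative to the other regions. The table holds no value per library, so the spread of the 2 libraries is carried by the standard error (SE) alone.

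Cdkn2c, the gene of p18, moved most. Its log2 fold change was -0.81 ± 0.05 (SE; 95% interval -0.91 to -0.70; adjusted p = 3.71e-50) in the authors' deposited table, which leaves 57.2% of the DMSO level (interval 53.2% to 61.4%). Of 253 other regions within 1 kb of a TSS and within 2-fold of its base mean, 3 had a lower value, and their median was -0.07. Among those regions 42.7% were called lower and 26.5% higher with apicidin. Only those 3 lay below Cdkn2c. At -0.73 after subtracting the trend over base mean and -0.71 after centring on the stronger regions, it was also called.

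Cdkn1a, the gene of p21, was lower at its promoter region, and its other 2 regions were not called. The region that begins at the TSS fell by 0.57 ± 0.10 on the log2 scale (adjusted p = 2.54e-07) in the authors' deposited table, to 67.2% of DMSO (interval 58.6% to 77.0%). The region 2.63 kb downstream had 0.05 ± 0.21 (adjusted p = 0.906) in the authors' deposited table. The promoter region lay below the downstream region by a difference of -0.62 ± 0.24 (95% interval -1.09 to -0.16), taking the noise of the regions as independent. The third region had 0.51 ± 0.55 (adjusted p = 0.576) in the authors' deposited table, an error too wide to show a change in either direction. Of 3967 other regions near a TSS and within 2-fold of the base mean of the promoter region, 16.9% were lower than Cdkn1a, 48.6% were called lower, and the median was -0.26.

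Cdkn1b, the gene of p27, showed the smallest of the called decreases. Its broad region had -0.32 ± 0.05 (adjusted p = 3.63e-10) in the authors' deposited table, or 80.1% of DMSO (interval 75.1% to 85.4%). Among 105 comparable regions near a TSS, 19.0% were lower, 37.1% were called lower and 32.4% higher, with a median of -0.0048. The lesser region before the TSS had 0.0045 ± 0.45 (adjusted p = 0.996) in the authors' deposited table. Cdkn2c lay below Cdkn1b by 0.49 ± 0.07 (95% interval 0.35 to 0.62) and Cdkn1a lay between them, with intervals of both differences clear of 0 (Cdkn1a minus Cdkn1b -0.25, interval -0.47 to -0.04; Cdkn1a minus Cdkn2c 0.23, interval 0.01 to 0.46). These intervals take the noise of the regions as independent and are not adjusted for the number of pairs. After subtracting the trend over base mean, Cdkn1a (-0.43) and Cdkn1b (-0.27) stood closer, and no interval was computed at that setting.

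For Cdkn2d, the gene of p19INK4d, the estimate of -0.56 ± 0.38 (adjusted p = 0.325) in the authors' deposited table resembled that of Cdkn1a in size but not in precision. Its 95% interval ran from -1.30 to 0.19, so that neither a decrease as large as that of Cdkn2c nor a small increase could be told apart at a base mean of 42.7.

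**Figure D1:**
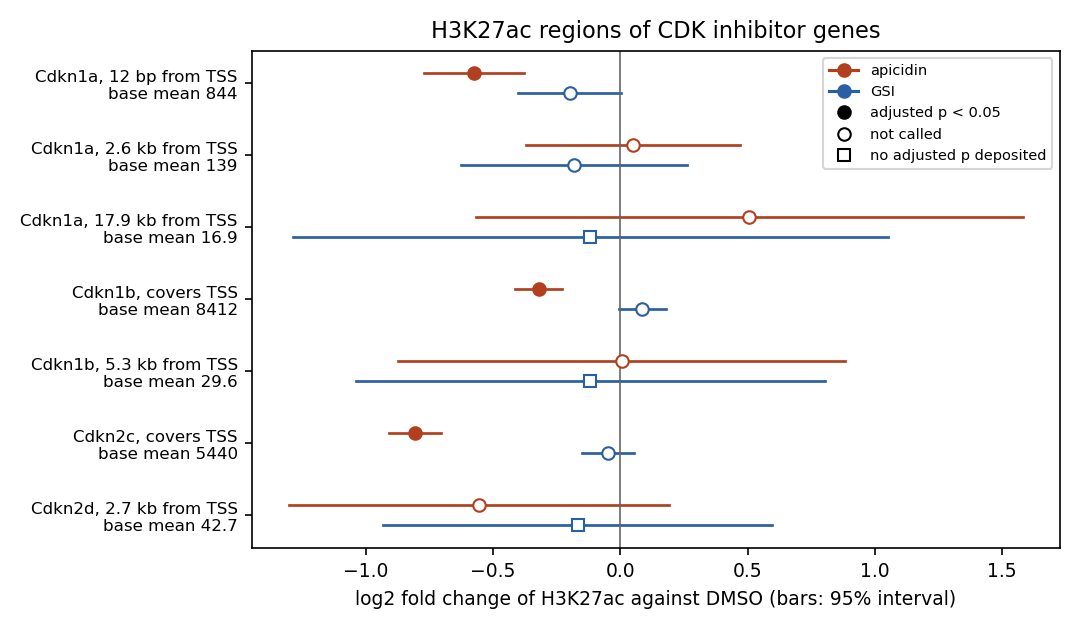
Log2 fold change of H3K27ac against DMSO (x axis) for each of the 7 regions (rows, with distance to the TSS and base mean), for apicidin and GSI. Points are the authors' estimates and bars their 95% intervals; filled points passed an adjusted p of 0.05. The filled points are the apicidin values of Cdkn2c (-0.81), the Cdkn1a promoter (-0.57) and Cdkn1b (-0.32), and all intervals for GSI reach across 0.

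**Figure D2:**
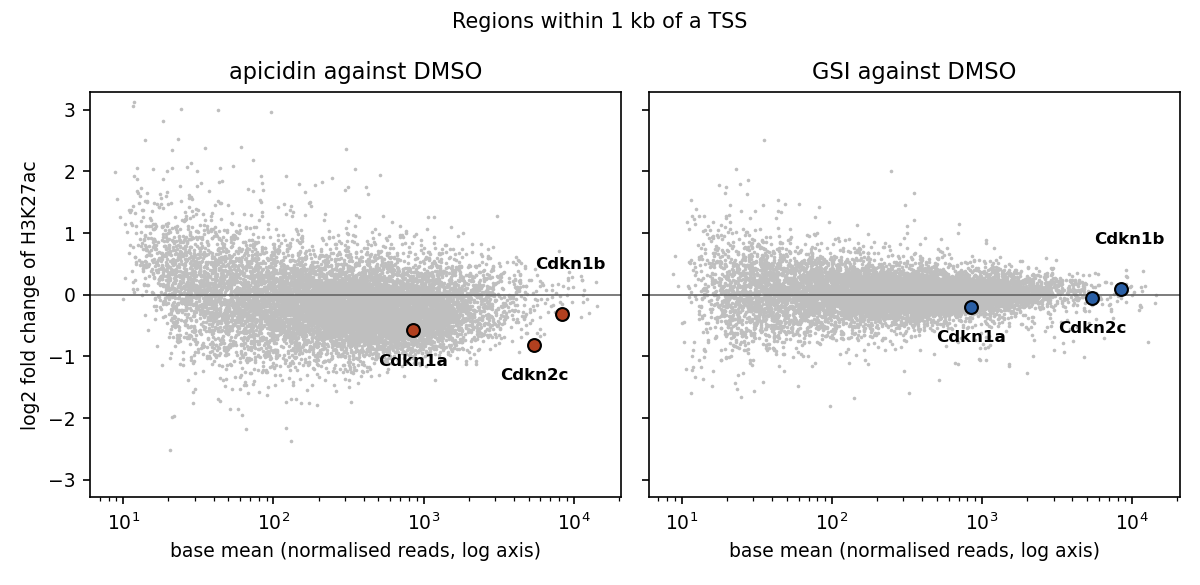
Log2 fold change (y axis) over base mean (x axis, log scale) for all regions within 1 kb of a TSS (grey), with the 3 member regions coloured, for apicidin (left) and GSI (right). Cdkn2c, at a base mean of 5440, lies at the lower edge of regions of its strength with apicidin (-0.81) and near 0 with GSI (-0.05).

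GSI gave no call at these genes. Of the 7 regions 4 had an adjusted p and 0 of those passed in the authors' DESeq2 test, 0 of 7 had an unadjusted p under 0.05, and 3 with low base means had no adjusted p and count as untested. Across the 25756 tested regions 13.8% were called with GSI, 7.17% lower and 6.62% higher, and among those covering a TSS 9.61% were called, 4.36% lower and 5.25% higher. The members' median was -0.12, against 0.0022 for all regions. That median is the value of the third Cdkn1a region, which was untested at a base mean of 16.9, so it shows no shift of the group.

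For the strong regions the intervals bound the size of any GSI change. Cdkn2c had -0.05 ± 0.05 (adjusted p = 0.631) in the authors' deposited table. Its interval of 90.0% to 104% of the DMSO level leaves out a decrease like that with apicidin. Cdkn1b had 0.09 ± 0.05 (adjusted p = 0.247) in the authors' deposited table, or 99.6% to 113% of DMSO. The Cdkn1a promoter region had -0.20 ± 0.10 (unadjusted p = 0.0513, adjusted p = 0.206) in the authors' deposited table, with an interval from 75.8% to 100.1% of DMSO, which covers both no change and a decrease to about the level seen at Cdkn1b with apicidin. The second Cdkn1a region had -0.18 ± 0.23 (adjusted p = 0.689) in the authors' deposited table. For the untested regions the estimates were -0.12 ± 0.60 (the Cdkn1a region 17.9 kb away), -0.12 ± 0.47 (lesser Cdkn1b region) and -0.17 ± 0.39 (Cdkn2d) in the authors' deposited table. The interval of the first ran from 41.0% to 207% of DMSO.

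Apicidin and GSI differed at Cdkn2c and Cdkn1b. The difference of the log2 fold changes, apicidin minus GSI, was tested over all 56342 regions with a normal p and Benjamini-Hochberg adjustment, taking the errors as independent although both comparisons share the DMSO libraries. It was -0.76 ± 0.07 (adjusted p = 4.23e-21) at Cdkn2c and -0.41 ± 0.07 (adjusted p = 1.34e-07) at Cdkn1b. At the Cdkn1a promoter region it was -0.37 ± 0.14 (95% interval -0.66 to -0.09) and was not called (adjusted p = 0.0881). With a correlation of 0.5 between the fold changes, as the shared controls could give, that adjusted p became 0.00218 and the call was made. With independent errors it weakened to -0.28 on centring on the stronger regions (adjusted p = 0.307). After subtracting the trend over base mean it was -0.23 (adjusted p = 0.481). Taking the errors as independent, 2 of 7 regions were lower with apicidin than with GSI. The shares over all regions, computed the same way, were 8.61% called, 5.60% lower and 3.01% higher. Among regions covering a TSS 25.7% were called, 21.8% lower and 3.87% higher. With the correlation 3 of 7 were lower, and no share over all regions was computed at that setting. The other 4 regions had adjusted p-values of 0.850 to 0.979, with standard errors of 0.31 to 0.81.

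The surroundings of each gene were read within 100 kb of its regions. At Cdkn1a 37 regions of 5 other genes lay there, of which 4 rose and 7 fell with apicidin. With GSI 2 of them rose, 5 fell, 7 were not called and 23 were untested. Before the promoter, which fell, stood a region assigned to the noncoding transcript Gm16197 (29217919 to 29219789), ending 10.9 kb before the nearest Cdkn1a region. It rose by 0.91 ± 0.14 (adjusted p = 2.00e-09) with apicidin in the authors' deposited table. Its GSI value in the authors' deposited table was -0.04 ± 0.15 (adjusted p = 0.925). The difference between treatments was called (adjusted p = 1.59e-04). A further Gm16197 region (29192877 to 29195408), 35.3 kb before, rose with apicidin (0.75 ± 0.13, adjusted p = 3.20e-07) and with GSI (0.40 ± 0.14, adjusted p = 0.0323) in the authors' deposited table. On the other side the promoter region of Rab44 (29269734 to 29273855), 20.9 kb beyond the last Cdkn1a region, fell with apicidin (-0.90 ± 0.08, adjusted p = 3.43e-26) and with GSI (-0.74 ± 0.08, adjusted p = 1.38e-16) in the authors' deposited table. The other 2 Gm16197 regions were not called with apicidin, with -0.10 ± 0.21 (adjusted p = 0.797) and 0.53 ± 0.36 (adjusted p = 0.312) in the authors' deposited table. The nearest called regions were thus raised before the Cdkn1a promoter and lowered beyond it. Farther before it the calls were mixed: 2 weak Stk38 regions rose, and a Stk38 region and the Srsf3 promoter region fell, the latter by 0.49 ± 0.07 (adjusted p = 1.33e-11) with apicidin in the authors' deposited table. The Srsf3 region rose with GSI, by 0.18 ± 0.07 (adjusted p = 0.0468) in the authors' deposited table. Without the trend that GSI call was lost (adjusted p = 0.0665), as were the apicidin calls of the lowered Stk38 region (adjusted p = 0.0940), of a raised one (adjusted p = 0.208) and of 1 of the lowered Rab44 regions (adjusted p = 0.0507). The nearest-TSS assignment decides which of them carry the symbol Cdkn1a, and whether any of them acts on Cdkn1a was not tested. Taking every region within 20 kb of a member region, whatever its symbol, gave 18 regions with 1 higher and 4 lower with apicidin. With GSI 0 of them were called by the authors' DESeq2 test, but most of the 18 had no adjusted p and count as untested.

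The other loci held fewer called regions, but also fewer regions in all. Over all regions 23.8% were called with apicidin, and no locus was tested against that share. Around Cdkn2c all 8 other regions belonged to Faf1, and its promoter region, 7.36 kb from the Cdkn2c region, fell with apicidin by 0.39 ± 0.10 (adjusted p = 9.58e-04) in the authors' deposited table, a call that was lost after subtracting the trend over base mean (adjusted p = 0.0536). Its region 69.1 kb away also fell, by 0.39 ± 0.13 (adjusted p = 0.0163) in the authors' deposited table, a call lost on centring (adjusted p = 0.0971) and without the trend (adjusted p = 0.158). Around Cdkn1b 7 regions of 5 genes were found, of which only the Apold1 promoter region was called with apicidin (-0.50 ± 0.14, adjusted p = 0.00211, in the authors' deposited table). Of 31 regions of 6 genes around Cdkn2d, 4 rose and 1 fell with apicidin. Of those that rose 3 were assigned to Slc44a2, the nearest of them 25.9 kb away with 0.36 ± 0.10 (adjusted p = 0.00198) in the authors' deposited table. Another of these, 31.0 kb away, rose with apicidin (0.41 ± 0.10, adjusted p = 3.27e-04) but fell with GSI (-0.43 ± 0.10, adjusted p = 6.63e-04) by the authors' DESeq2 test. It was the only GSI call around Cdkn2d, where 11 regions were not called and 19 were untested. Around Cdkn2c and Cdkn1b 0 other regions were called with GSI.

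**Figure D3:**
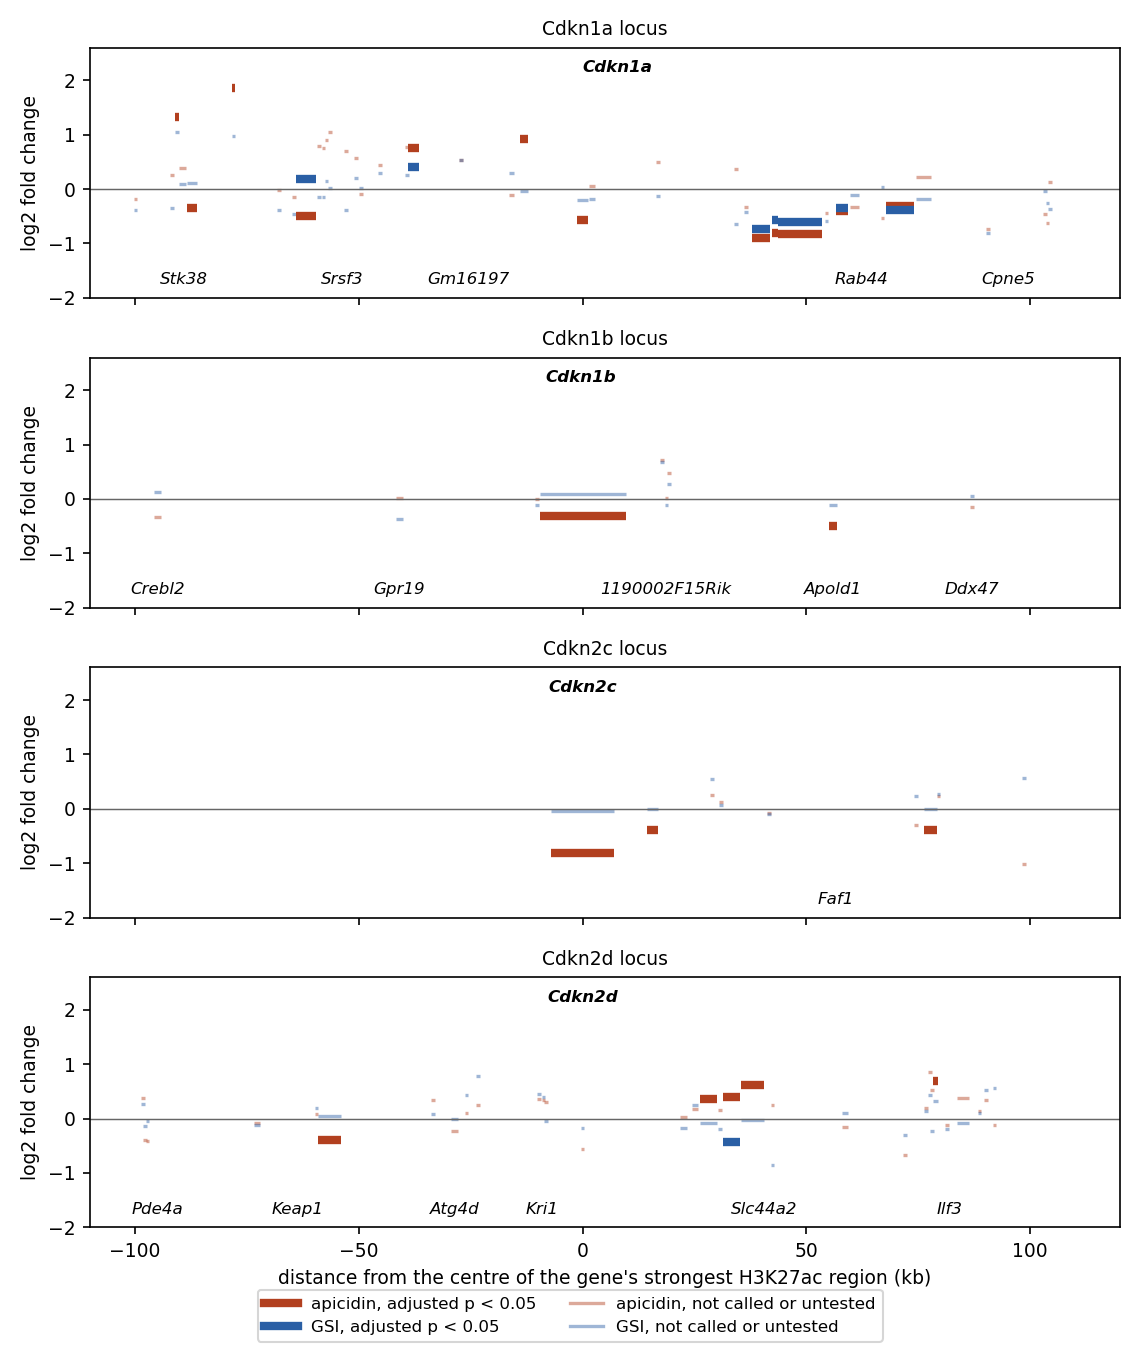
Log2 fold change of H3K27ac (y axis) at all regions within 100 kb of each gene's regions, by distance from the centre of the gene's strongest region in kb (x axis, in the direction of rising genome position), for apicidin and GSI; thick bars passed an adjusted p of 0.05 and bar length is region width (at least 0.8 kb). At Cdkn1a the promoter (-0.57) has 2 raised Gm16197 regions (0.91 and 0.75) and lowered Rab44 regions as its nearest called neighbours with apicidin, and at Cdkn2c and Cdkn1b a broad region carries the decrease.

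Cdkn2a and Cdkn2b, whose products p16, p19ARF and p15 are classical barriers to proliferation, were absent from the table, and 0 of the older symbols that RefSeq lists for the 6 genes occurred in it. By RefSeq gene order both lie next to Mtap, an enzyme gene of methionine salvage. The Mtap promoter region (chromosome 4, 88783158 to 88784425) was present with a base mean of 197, and rose with apicidin by 0.47 ± 0.18 (adjusted p = 0.0355) in the authors' deposited table. With GSI it had 0.18 ± 0.19 (adjusted p = 0.623) in the authors' deposited table. The next region on that side, assigned to Caap1, began 5416 kb later, and the 5 other coding genes that RefSeq places between Cdkn2b and Caap1 had no region either. Of 56313 gaps between neighbouring regions 35 were at least as long, and the median gap was 1.40 kb. A lack of a region is not rare by itself, since 10297 of 21900 RefSeq coding genes had a region under their symbol and the others had none. Whether these genes lack the mark or are missing from the genome of the line cannot be told apart from a list of H3K27ac regions, and the input libraries were not used here.

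The rest of the pathway was read from 7 lists with 61 genes, each gene by its region of highest base mean, and 59 had a region. With apicidin H3K27ac fell at 31 of these, rose at 7 and was not called at 21. Over all 12081 genes 45.5% were called, 33.5% lower and 12.0% higher. The split moved to 24 lower and 11 higher on centring and to 23 lower and 11 higher without the trend. With GSI 5 fell, 0 rose, 52 were not called and 2 were untested by the authors' DESeq2 test, with 8 lower and 4 higher at an unadjusted p under 0.05, and 14.5% of all tested genes were called, 6.80% lower and 7.74% higher. The median of the listed genes was -0.25 with apicidin, against -0.18 for all genes, and -0.03 with GSI, against 0.0071.

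The kinases and cyclins that the inhibitors bind came first. Of 5 genes of CDK4, CDK6 and the D cyclins 2 rose with apicidin and 0 fell (1 lower at an unadjusted p under 0.05) in the authors' DESeq2 test. Ccnd2, a D cyclin gene, rose by 0.88 ± 0.18 (adjusted p = 8.52e-06) and Ccnd1 by 0.18 ± 0.07 (adjusted p = 0.0459) in the authors' deposited table. Ccnd3, not called here, was called higher on centring (adjusted p = 0.00898) and without the trend (adjusted p = 0.0167). With GSI only Cdk6 of these 5 changed, with -0.32 ± 0.08 (adjusted p = 9.67e-04) in the authors' deposited table. Of 4 genes of CDK2 and its cyclins 2 fell with apicidin, Ccna2 by 0.81 ± 0.10 (adjusted p = 3.74e-13) and Ccne2 by 0.40 ± 0.09 (adjusted p = 1.05e-04) in the authors' deposited table. Ccne2, an E cyclin gene, also fell with GSI, by 0.33 ± 0.09 (adjusted p = 0.0052) in the authors' deposited table.

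Downstream, of 12 pocket protein and E2F genes with a region apicidin lowered 8 and raised 0, and 4 were not called by the authors' DESeq2 test, with 1 higher at an unadjusted p under 0.05. E2f8, a repressor of E2F targets, fell by 1.25 ± 0.15 (adjusted p = 4.97e-15) and Rbl2, a relative of Rb1, by 0.58 ± 0.12 (adjusted p = 1.09e-05) in the authors' deposited table, the Rbl2 region lying 113 kb from its TSS. With GSI E2f2 fell by 0.21 ± 0.07 (adjusted p = 0.0158) in the authors' deposited table. The calls of E2f2, E2f3 and Tfdp1 with apicidin were lost under both rescalings (centring, and subtracting the trend). Tfdp2 was called higher under both, at a region 35216 bp from its TSS.

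Of 12 p53-axis genes with a region, a list that holds both regulators and targets of p53, apicidin lowered 5 and raised 1, and 6 were not called. The calls of Chek1 and Trp53inp1 were lost under both rescalings. Ccng1, a p53 target, fell by 0.93 ± 0.13 (adjusted p = 2.76e-11) and Mdm2, the ubiquitin ligase of p53, by 0.55 ± 0.11 (adjusted p = 8.04e-06) in the authors' deposited table. Sesn1, another p53 target, rose by 0.25 ± 0.10 (adjusted p = 0.0485) in the authors' deposited table. Ccng1 was also the gene of this list called with GSI, with -0.43 ± 0.13 (adjusted p = 0.0110) in the authors' deposited table. For p27 control 3 of 8 genes rose and 2 fell with apicidin. Foxo3, whose product activates Cdkn1b, rose by 0.40 ± 0.06 (adjusted p = 7.25e-09) and Skp1a by 0.38 ± 0.07 (adjusted p = 6.19e-07) in the authors' deposited table. Cul1, the scaffold of the ligase that degrades p27, fell by 0.83 ± 0.09 (adjusted p = 3.69e-17) and its cofactor gene Cks1b by 0.47 ± 0.10 (adjusted p = 2.19e-05) in the authors' deposited table. Skp2, which marks p27 for breakdown, was not called, with -0.15 ± 0.14 (adjusted p = 0.513) in the authors' deposited table. With GSI 0 of these 8 were called by the authors' DESeq2 test, with 1 lower at an unadjusted p under 0.05.

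Among 16 genes whose products act on the INK4 or p21 promoters 12 fell and 1 rose with apicidin. The Polycomb gene Bmi1 fell by 1.55 ± 0.18 (adjusted p = 2.04e-16) in the authors' deposited table. Cbx8, another Polycomb gene, also fell (adjusted p = 2.30e-16) in the authors' deposited table, at a region 15433 bp from its TSS. Smad3, a mediator of TGF-beta signals, rose by 0.62 ± 0.06 (adjusted p = 8.36e-20) in the authors' deposited table. The calls of Dmtf1 and Smad4 were lost under both rescalings, and that of Suz12 without the trend. Cbx7 and Ring1, further Polycomb genes, were called higher under both. With GSI Myc alone of the 16 was called, with -0.40 ± 0.06 (adjusted p = 1.19e-08) in the authors' deposited table. The remaining inhibitors by name, Cdkn1c (p57) and Cdkn3 (a phosphatase that acts on CDKs), both fell with apicidin, by 0.85 ± 0.21 (adjusted p = 5.26e-04) at a region 45.4 kb from the Cdkn1c TSS and by 1.39 ± 0.18 (adjusted p = 8.00e-13) at the Cdkn3 promoter in the authors' deposited table.

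**Figure D4:**
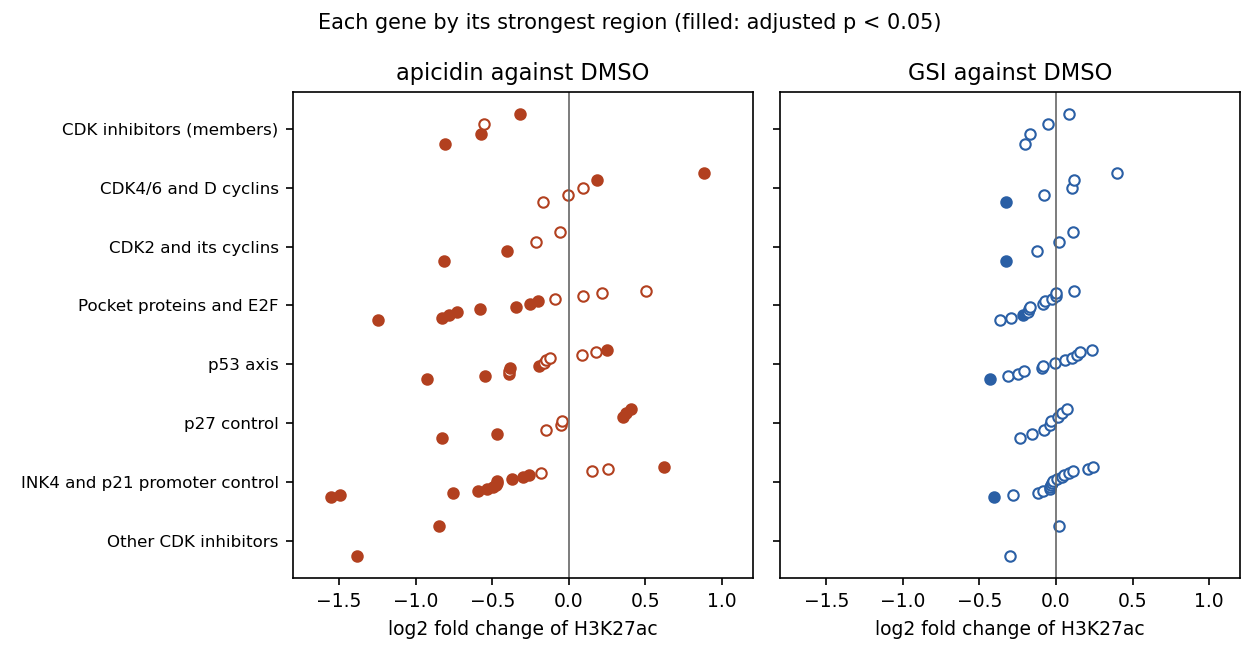
Log2 fold change of H3K27ac (x axis) for each gene by its strongest region, in rows by list, with apicidin (left) and GSI (right); filled points passed an adjusted p of 0.05. With apicidin most called genes lie left of 0, down to Bmi1 (-1.55), and Ccnd2 (0.88) lies farthest right; with GSI 5 listed genes are filled, all left of 0.

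The promoters most like Cdkn2c in the pair of fold changes were sought among 244 regions that cover a TSS and lie within 2-fold of its base mean, over 2 comparisons that share controls. The nearest was Hnrnpa0, an RNA-binding protein gene, at -0.81 with apicidin and -0.0025 with GSI in the authors' deposited table, a distance of 0.046 on the log2 scale. Marcks (-0.69 and -0.10) and Hmga1 (-0.67 and -0.03) in the authors' deposited table followed at distances of 0.13 for each. Only Hnrnpa0 lay within 0.1.

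The label of the cells was set beside markers. All 13 pre-T markers had a region, with base means of 222 to 8020 (median 3475) for the strongest region of each, and in 8 of them it covered the TSS. Of 6 B cell markers 4 had a region (base means 45.2 to 260) and of 6 myeloid markers 1 (Itgam, 1245, at 16518 bp from its TSS), and in none of these did the strongest region cover the TSS. The erythroid genes Epor, Klf1 and Gata1 had regions with base means of 163 to 871, also not covering the TSS. Pax5, Ms4a1, Csf1r, Lyz2, Mpo, Elane, Cebpa and Hba-a1 had no region. Depth per library is unknown, since the table gives only fold changes, their errors and a mean over libraries.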

How the data were processed

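ChIP-seq of H3K27ac covered 2 libraries for each of 3 conditions. Bowtie2, SAMtools, deepTools, FastQC and the build mm9 are named in the submitters' processing notes; no source used here names the region caller, the read counter or software versions. The authors' deposited table of 56342 regions was used, which has only summaries over libraries. Its columns carry DESeq2 names, per the file headers: the base mean is a signal computed by the authors as a mean of normalised read counts, taken from the apicidin columns, and the fold changes and their standard errors are log2 values by the authors. DMSO was assumed to be the reference, since no other control is labelled. The Wald score is the authors', as are both kinds of deposited p-value. Adjusting the raw ones by Benjamini-Hochberg returned the adjusted ones within 5.40e-07 (apicidin) and 1.03e-06 (GSI), and 30586 regions with base means up to 72.1 had no adjusted p for GSI.

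Computed here, with Python 3.11.15, SciPy 1.17.1 and statsmodels 0.14.6, were 95% intervals from the standard errors, the difference between treatments, and calls after centring each comparison on the regions with at least the median base mean (shift -0.10 for apicidin and -0.00098 for GSI) or after subtracting a lowess trend over log base mean (fraction 0.2). The centring, the trend and the difference were also run on simulated data, and the intervals were not. The simulation had a constant shift and independent errors, so it covers neither a trend over base mean nor shared controls. Precision is carried by the standard error. All 6 genes were described with every region; from each pathway list at most 2 genes per direction and treatment, by smallest adjusted p, were named with full values, and Skp2 and the genes named only for calls lost or gained under another setting were chosen after their values were seen. The members and lists were chosen with earlier results of these data known, and the results support nothing independently of them. RBPJ and input libraries entered no test. One marker gene is not reported here.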

Additional observations from a re-analysis of the deposited data

How the results depend on the processing

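The 3 apicidin calls, at Cdkn2c, the Cdkn1a promoter region and Cdkn1b, were made as well at an adjusted p under 0.01, on centring, without the trend over base mean, and with adjustment over all regions or over the stronger regions. Requiring a log2 fold change of at least 0.5 left 2 and dropped Cdkn1b (-0.32), and 2 regions cover a TSS. Taking every region within 20 kb whatever its symbol, an alternative added after seeing the data, gave 5 called. GSI had 0 calls under each of these settings, by the authors' DESeq2 test or by p-values recomputed from its estimates. The stricter cut and the minimum fold change could not have added one. Most regions within 20 kb of a member region had no GSI adjusted p. The difference between treatments gave 2 calls, and 3 with a correlation of 0.5, which added the Cdkn1a promoter region (-0.37, adjusted p = 0.00218). It gave 2 on centring and without the trend, where the Cdkn1a promoter region had adjusted p-values of 0.307 and 0.481. Of 112 single-region values under other settings 18 had no adjusted p, and 92 of the other 94 kept their side of the threshold. Some of the 92 could not have moved, so that count does not measure stability. A stricter cut or a minimum fold change cannot add a call, and for apicidin the adjustment over all regions repeats the deposited one. Pathway calls with apicidin numbered 38, and 32 to 35 under other settings. With GSI they numbered 5, but 3 at an adjusted p under 0.01. They numbered 6 without the trend, all lower. With the region nearest the TSS standing for each gene they also numbered 6, with 1 higher and 5 lower. No paired analysis was possible because the table holds no values per library, and leaving out a replicate was not run for the same reason. The 4 weak regions had standard errors of 0.21 to 0.60, which could hide a change like that called at Cdkn1b (-0.32). At the second Cdkn1a region the apicidin interval (-0.37 to 0.47) leaves out decreases like those of Cdkn2c and the Cdkn1a promoter region.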
